A study of Drosophila melanogaster with 4 samples.

Results

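The mitochondrial ribosomal protein genes were taken as every gene whose symbol starts with mRpL, for proteins named after the large subunit, or mRpS, for proteins named after the small subunit. Of the 17807 genes in the count tables, 73 met this rule, 47 mRpL and 26 mRpS. Of these, 72 had enough counts to be tested and 72 were in the authors' normalized table. A further table, with separate values for the maternal and the paternal allele, held 19 of them. mRpL53 had no UMI in any of the 253 individuals used, which allows a level of up to 0.0154 counts per 1000000 UMIs (CPM) over all of them together. A UMI is a random tag that marks 1 captured RNA molecule.

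Mitochondria carry their own ribosome, which translates the few proteins encoded in the mitochondrial genome, all of them subunits of the respiratory chain and the ATP synthase. Its RNAs are made from mitochondrial DNA, but its proteins are encoded in the nucleus, made in the cytosol and imported. A fly egg receives its mitochondria and its first mRNAs from the mother, and these maternal mRNAs are later degraded while the genome of the embryo is switched on. Both events fall within the first hours of development, so the mRNA of a nuclear gene can pass from a maternal to a zygotic source within this window.

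Single embryos up to 3 h old and single unfertilized eggs of Drosophila melanogaster were profiled by CEL-Seq2, a method that counts the 3′ ends of polyadenylated RNA with UMIs. Mothers came from the inbred line DGRP_737 and fathers from DGRP_352, both reared at 25 °C, so every embryo is a hybrid of these lines. The authors ordered 245 embryos and 8 eggs by pseudotime, an estimate of developmental progress made from the transcriptomes themselves. The 8 eggs were compared with 4 consecutive groups of the ordered embryos, Q1 to Q4, of 61, 61, 62 and 61 individuals. No clock age was used, and in whole embryos fewer cells of a type and less RNA per cell cannot be told apart.

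Eggs had a median of 756620 UMIs (278007 to 2069031). Q1 to Q4 had medians of 907317, 835968, 672194 and 568460 UMIs, so depth fell along the order, and single embryos ran from 163287 to 1802671. A count of 0 in a Q4 embryo allows a level of up to 5.28 CPM at the median depth and up to 18.4 CPM in the shallowest, for counting error only. The sum of 9 maternal marker genes, among them bcd, nos and osk, had means of 2227 CPM in eggs and 2472, 1218, 492.9 and 440 CPM in Q1 to Q4. The sum of 14 early zygotic genes, among them ftz, eve and sna, had means of 490 CPM in eggs and 537, 798, 3727 and 2316 CPM in Q1 to Q4. Genes of the somatic egg chamber stayed at or under 9.80 CPM in sum, and 3 male germ line genes were at 0 in all but 1 embryo. In the authors' order, eggs U2O.07 and U2O.08 were placed later than all Q1 embryos. They are included unless stated.

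The 73 genes together made up 3740 ± 663 CPM in eggs (SD, n = 8). Their sum was 3629 ± 450 CPM in Q1 (SD, n = 61), 3220 ± 285 in Q2 (n = 61), 2827 ± 476 in Q3 (n = 62) and 2594 ± 353 in Q4 (n = 61). The mRpL genes accounted for most of this loss. Between Q4 and Q1 their summed mean fell by 881 CPM, and that of the mRpS genes fell by 153.9 CPM. The ratio of the mRpL sum to the mRpS sum within an individual was 1.84 ± 0.198 in eggs, 1.91 ± 0.0971, 1.84 ± 0.0953 and 1.39 ± 0.213 in Q1 to Q3, and 1.37 ± 0.124 in Q4. Q3 and Q2 were the only neighbouring groups whose ranges of mean ± SD did not overlap. A pair of genes, mRpL12 and mRpL10, made up 41.2% of the loss of the mRpL sum.

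No gene of the family passed the test between Q1 embryos and eggs. With edgeR's quasi-likelihood test in 1 fit over all 5 groups and a Benjamini-Hochberg adjusted p under 0.05, 0 of 72 were higher and 0 lower in Q1 embryos than in eggs. Over all 6634 genes tested, 0.211% were higher and 0.0151% lower. At an unadjusted p under 0.05, 1 was higher (mRpL51, log2 fold change 0.46) and 1 lower (mRpS5, -0.36), and DESeq2 called 0 in either direction. The median log2 fold change was -0.03 for the 72 genes and 0.04 for all genes. The count depended on which eggs were used. With the 27 eggs of at least 100000 UMIs, most of them outside the authors' order, 26 of the 72 were higher and 16 lower, beside 36.8% and 37.1% of all genes.

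Along the order, the 72 genes did not move together. Between Q4 and Q1, 45 genes fell (32 mRpL and 13 mRpS), against 55.7% of all genes tested, and 13 rose (7 mRpL and 6 mRpS), against 36.2% of all genes. At least 2-fold falls were seen in 15 (all genes 36.1%) and at least 2-fold rises in 0 (all genes 17.9%). The median log2 fold change was -0.39 for the 72 genes and -0.41 for all genes, which are close. With no filter on low counts beyond 1 UMI they were -0.05 and 0.28, with 29 of the 72 higher and 28 lower, beside 43% and 27.7% of all genes. With the filter kept, the median log2 fold change was -0.48 for mRpL and -0.17 for mRpS genes. These folds are relative to the other transcripts of each embryo, and the calls moved with the centring of all genes. Without library 1, 28 genes rose and 28 fell, without library 2 29 and 28, and without library 4 31 and 29. Over all genes, 42.4%, 44% and 43.9% rose and 47.2%, 46.6% and 46.6% fell in these fits. In these 3 fits the median of all genes was -0.11, -0.06 and -0.05, and that of the 72 genes -0.08, -0.02 and -0.08, so both had shifted together. Scaled to the spike-in RNAs, the median of all genes was -1.42, that of the 72 genes was -1.35, and 68 were lower and 0 higher (all genes 73.9% and 13.2%), so none of the 13 rises was called under this scaling. Spike-in UMIs were few, from 19 to 1095 per individual, with medians of 327 in eggs and 511, 458, 475 and 510 in Q1 to Q4. The counting error that this brings into the scaling was not tested.

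**Figure D1:**
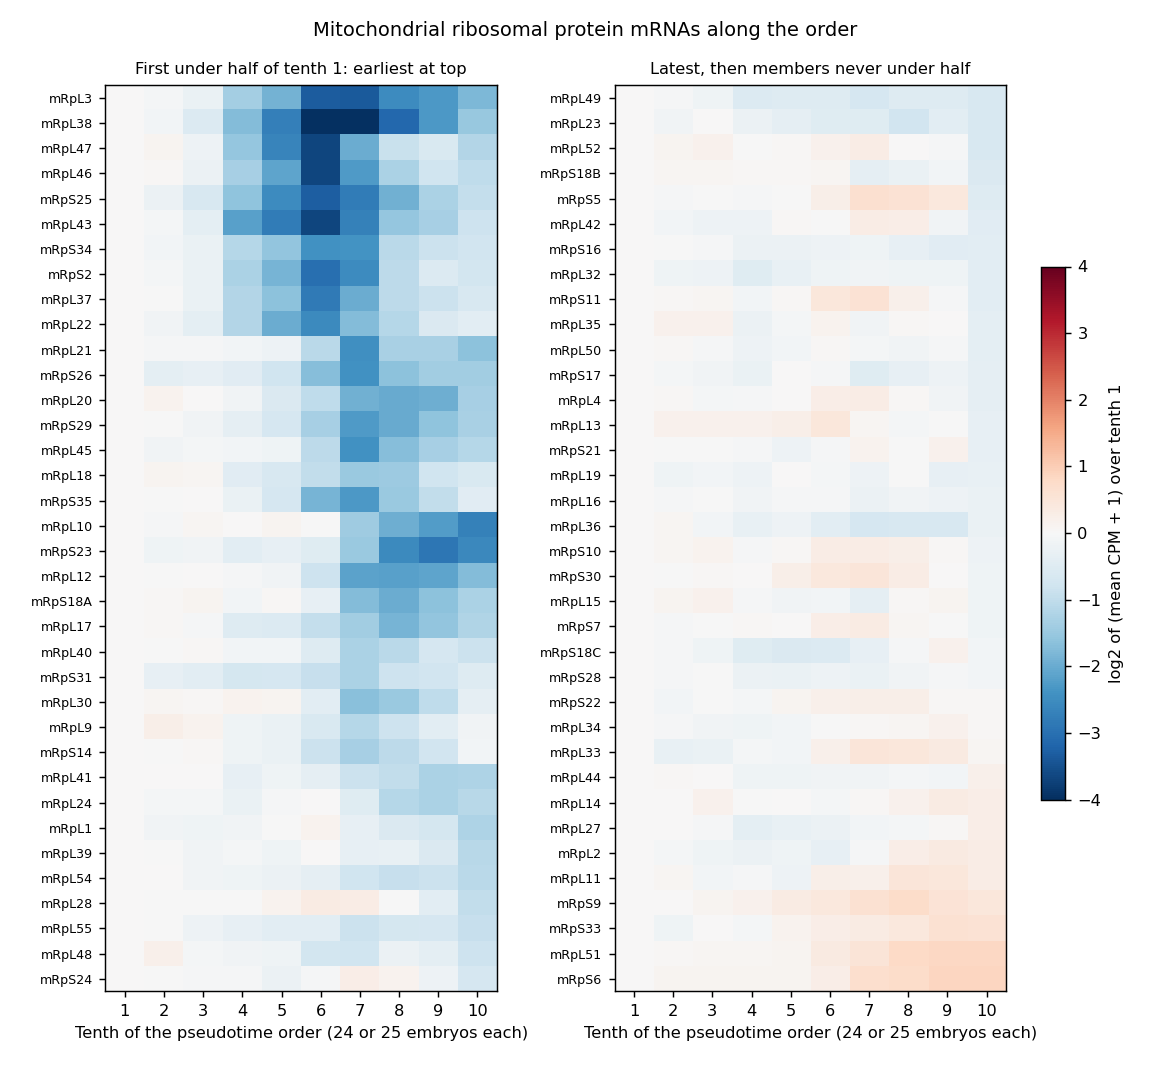
Mean level of 72 mitochondrial ribosomal protein genes (one line each) in 10 consecutive bins of the 245 ordered embryos, as log2 of (mean CPM + 1) over that of bin 1. Genes are sorted by the first bin in which their mean was less than 50% of the starting level: 33 of them crossed that level, 10 in bin 4 and 17 in bins 6 and 7.

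Split by the shape of their course, 33 genes (45.8%, against 55.6% of all genes tested) had at least 1 of 10 bins of the order with a mean below 50% of that in bin 1, and 39 never did. The shapes described next were picked from these same values and are descriptions. A first set of 10 genes was lost early and came back. These were the 10 genes at least 2-fold lower in Q2 than in Q1: mRpL3, mRpL22, mRpL37, mRpL38, mRpL43, mRpL46, mRpL47, mRpS2, mRpS25 and mRpS34. A second set of 17 genes was lost later, first passing below 50% in bin 6 or 7. The sum of the 10 early genes had means of 271 ± 120.7 CPM in eggs and 315 ± 44.2, 120 ± 62.8, 54.7 ± 35.7 and 152.4 ± 32.8 CPM in Q1 to Q4. In eggs this sum fell into separate levels, at 331 to 387 CPM in the 5 eggs whose names start with U1O and at 46.8, 171.5 and 188.8 CPM in the 3 that start with U2O. The meaning of these prefixes is not given in the labels. The sum of the 17 later genes had means of 1112 ± 260 CPM in eggs and 1049 ± 163.9, 965 ± 104.8, 441 ± 232 and 382 ± 82.6 CPM in Q1 to Q4. The sum of the 46 others had group means between 2059 and 2358 CPM in eggs and in Q1 to Q4, with single individuals from 1064 to 2939. These 46 hold genes that first passed below 50% in bin 8 or 10 as well as genes that rose, such as mRpS6. The 17 later genes made up 64.4% of the loss of the whole sum between Q4 and Q1.

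**Figure D2:**
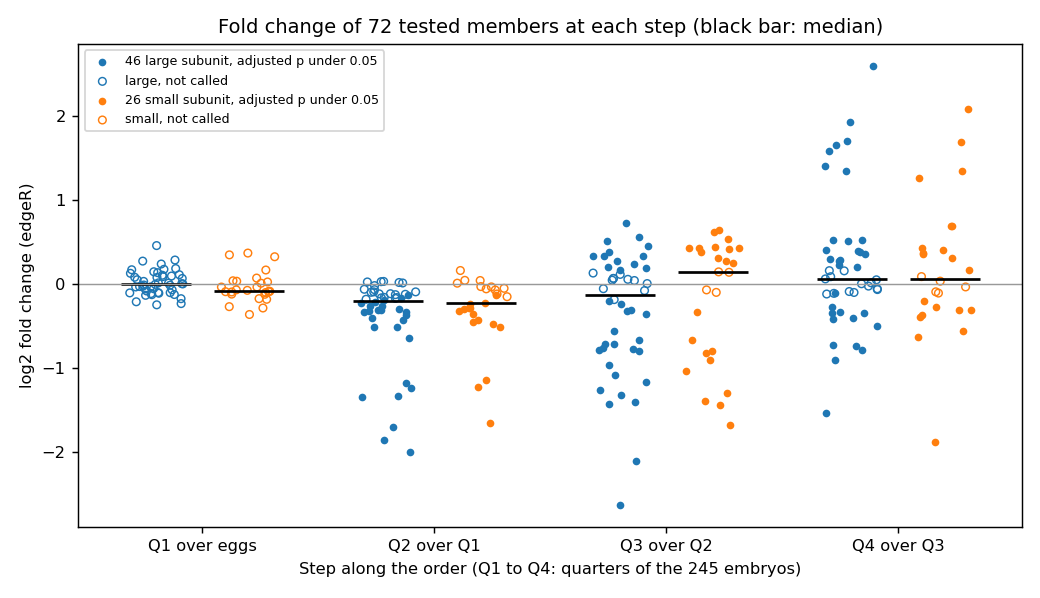
Log2 fold change (edgeR) of each of the 72 genes at each step, with Q1 embryos over eggs at the left and then each group over the one before it; mRpL genes are blue and mRpS genes orange, filled points passed an adjusted p under 0.05 and the bar is the median. The egg step has no filled point, the step to Q2 has 41 filled points below 0 and none above, and the last 2 steps have filled points on both sides. With spike-in scaling no gene is higher in Q3 than in Q2.

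The step to Q2 brought calls in 1 direction only. Against Q1, 41 of the 72 genes fell (26 mRpL and 15 mRpS), where 24.3% of all genes did, and 0 rose with edgeR, where 11.7% of all genes did. In total 3 alternative settings each called 1 rise, as did leaving out library 3 or library 4. At least 2-fold falls were seen in 10 (all genes 6.72%) and rises in 0 (all genes 1.57%). The median log2 fold change was -0.22 for these genes and 0.01 for all genes. With spike-in scaling 12 of the 72 were lower, beside 12.5% of all genes, so the share was then near the background. Without library 2 the count was 27, beside 20.7% of all genes.

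mRpL38 (FBgn0030552, X, 14226289 to 14227949, plus strand, BDGP6.54) encodes a protein that in the mammalian mitoribosome sits in the central protuberance of the large subunit. Its lowest, median and highest levels were 3.60, 29.1 and 47.3 CPM in eggs, 2.83, 28.6 and 46.1 in Q1 and 0, 6.30 and 26.2 in Q2. They were 0, 1.02 and 9.41 CPM in Q3 and 0, 6.26 and 21.2 in Q4. The median of Q3 is below the level that a count of 0 allows, and 32 of its 62 embryos had a UMI. The groups overlapped in single embryos, but the middle embryo of Q3 lay under the lowest egg and the lowest Q1 embryo. The change of mRpL38 was -1.87 ± 0.14 on the log2 scale in Q2 against Q1 (SE, edgeR adjusted p = 1.24e-30), -2.63 ± 0.22 in Q3 against Q2 (1.51e-25) and 2.60 ± 0.23 in Q4 against Q3 (6.42e-23). Q4 remained 1.90 log2 units lower than Q1 (-1.90 ± 0.15, edgeR adjusted p = 2.25e-29).

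mRpL47 (3R, 9514822 to 9515908, minus strand) is related to the bacterial protein L29, which lies by the exit of the peptide tunnel. It ran over 0, 30.7 and 55.4 CPM in eggs (lowest, median and highest), 18.9, 32.7 and 49.2 in Q1, 0, 7.69 and 30.3 in Q2, 0, 3.62 and 24.7 in Q3 and 0, 17.5 and 35.4 in Q4. It fell early, and its median was higher again in Q4, under that of Q1. mRpL47 had a log2 fold change of -1.70 ± 0.15 in Q2 against Q1 (edgeR adjusted p = 7.85e-23) and 1.59 ± 0.18 in Q4 against Q3 (1.79e-15). mRpL47 overlaps Rlb1 on the opposite strand, and whether the counts used strand is not given in the sources used here. Of the 73 genes, 42 overlap a gene on the opposite strand, 3 overlap one on their own strand, and for these the counts may include reads of the neighbour.

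mRpL3 (X, 15761248 to 15762663, plus strand), whose bacterial relative reaches towards the peptidyl transferase centre, fell at both early steps. Its lowest, median and highest levels were 7.19, 35.6 and 46.3 CPM in eggs, 16.99, 37.1 and 60.7 in Q1, 2.28, 13.7 and 40.4 in Q2, 0, 2.94 and 9.01 in Q3, and 0, 8.03 and 30.0 in Q4. Every Q3 embryo was below every Q1 embryo. The 3 log2 fold changes of mRpL3 were -1.24 ± 0.11, -2.11 ± 0.15 and 1.41 ± 0.17 for Q2 over Q1, Q3 over Q2 and Q4 over Q3, with edgeR adjusted p of 4.34e-22, 1.46e-31 and 2.72e-14.

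mRpL46 (3L, 1777439 to 1778347, plus strand), another protein of the mammalian central protuberance, had 0, 32.8 and 42.7 CPM in eggs (lowest, median and highest), 17.2, 36.3 and 55.6 in Q1, 1.05, 12.0 and 39.6 in Q2, 0, 4.11 and 24.3 in Q3, and 3.38, 17.8 and 36.8 in Q4. All Q4 embryos had it, while some Q3 embryos had no UMI for it. In edgeR's fit its log2 fold change was -1.35 ± 0.14 in Q2 against Q1 (edgeR adjusted p = 9.46e-19) and 1.66 ± 0.17 in Q4 against Q3 (1.73e-18).

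Among the mRpS genes of this set, mRpS25 (X, 14582136 to 14582982, minus strand) had 0, 20.005 and 28.7 CPM in eggs, 2.83, 20.9 and 43.6 in Q1, 0, 6.15 and 20.3 in Q2, 0, 2.08 and 10.5 in Q3, and 0, 9.69 and 29.1 in Q4. Its product is specific to mitochondrial ribosomes, and its gene overlaps CG14414. The log2 fold change was -1.66 ± 0.13 in Q2 against Q1 (edgeR adjusted p = 2.68e-26) and 2.08 ± 0.18 in Q4 against Q3 (1.13e-23). mRpS2, of a family shared with bacteria, had log2 fold changes of -1.23 ± 0.14 and 1.69 ± 0.17 for the same steps. mRpS34, another mitochondria-specific protein, had -1.15 ± 0.11 and 1.26 ± 0.13. Of the mRpL genes, mRpL43, also specific to mitochondria, had the most negative early value of the 10, -1.999 ± 0.16 (edgeR adjusted p = 3.46e-26), and 1.93 ± 0.22 (2.36e-16) in Q4 against Q3. mRpL37 had -1.19 ± 0.10 and 1.34 ± 0.12.

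All 10 of these genes were at least 2-fold higher again in Q4 than in Q3, and they made up 10 of the 11 genes of the family with such a rise (90.9%). Among all genes tested, 293 of the 446 lost early (65.7%) were regained in this way, and these were 23.8% of the 1233 genes with such a rise. The 10 were picked by their fall from Q1 to Q2 in these same counts. Their fall at that step within libraries or under other settings is therefore no independent support. Within each of the 4 libraries, the mean CPM of each of the 10 was lower in Q2 than in Q1. It was lower again in Q3 and higher in Q4. With spike-in scaling all 10 were still lower at the early step (-2.08 to -1.21), where 12.5% of all genes, not picked in this way, were. They were also higher at the late one (0.95 to 2.26), where 21% of all genes were. The late return depended on how the embryos were ordered. In an order rebuilt from 6398 other genes without the 72, all 10 were again lower at the early step (all genes, not picked in this way, 23.2%). At the late step 7 were called higher (all genes 28.7%). Of these, 3 were at least 2-fold higher: mRpL46 (1.06), mRpL47 (1.39) and mRpS2 (1.04), where 2.37% of all genes were. In that order mRpL38 had -0.20 (edgeR adjusted p = 0.499), mRpL3 0.32 (0.107) and mRpS25 0.40 (0.0833). The rebuilt order had a Spearman's rho of 0.906 with the authors' order.

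**Figure D3:**
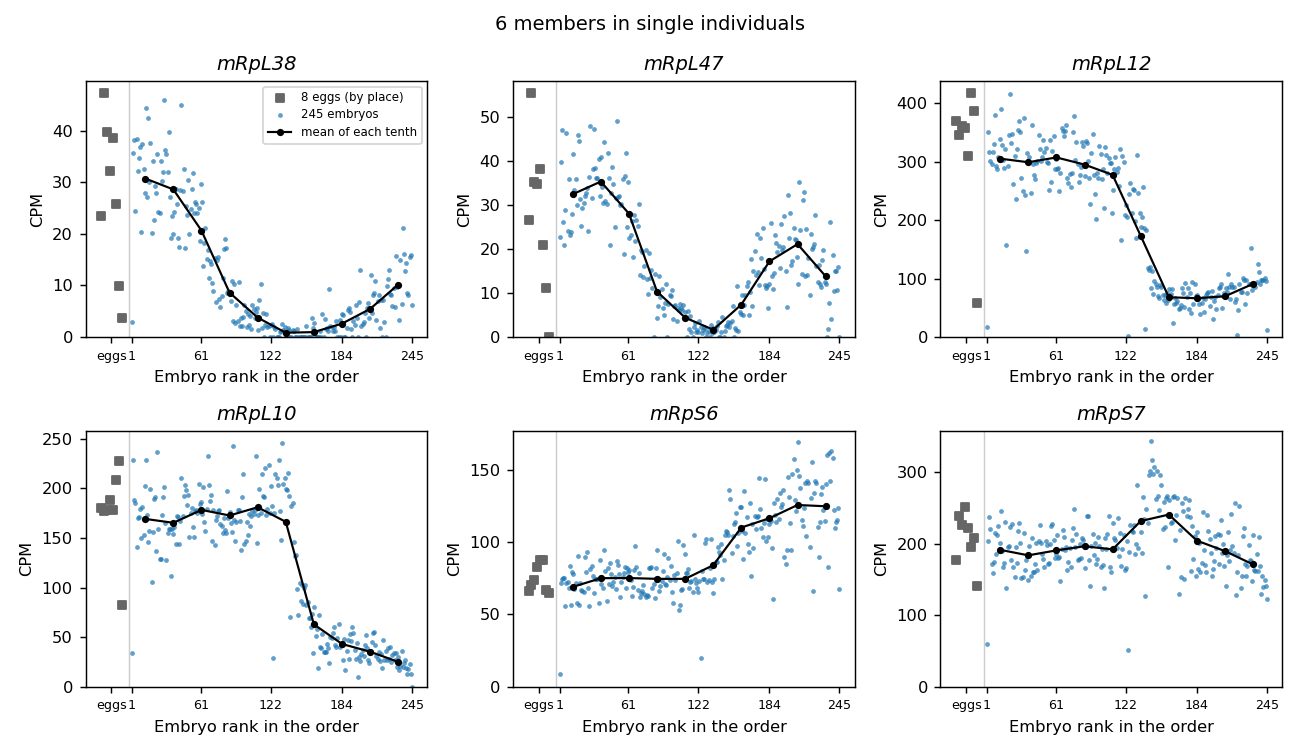
Level in CPM of 6 genes in each of the 245 embryos by rank in the authors' order, with the 8 eggs at the left by their place in the full order and black lines for the means of the 10 bins. mRpL38 and mRpL47 dip and return, mRpL12 and mRpL10 keep their level into Q3 and then drop, mRpS6 climbs and mRpS7 has a hump. With spike-in scaling mRpS6 is not called between Q4 and Q1. In the order rebuilt without these genes, mRpL38 is not called between Q4 and Q3 (log2 fold change -0.20).

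By its definition, the later set stayed above 50% of its level in bin 1 through bin 5. mRpL10 (FBgn0031231, 2L, 203779 to 204782, plus strand) and mRpL12 (FBgn0011787, 3L, 8956791 to 8957584, plus strand) encode the proteins of the stalk that recruits translation factors to the ribosome, L12 being held there by L10. mRpL10 had lowest, median and highest levels of 82.7, 179.2 and 227 CPM in eggs, 33.98, 171.8 and 236 in Q1, 137.9, 174.2 and 243 in Q2, 19.3, 72.8 and 246 in Q3, and 0, 31.1 and 60.4 in Q4. Every Q4 embryo was below every Q2 embryo, and Q3 spanned both. In log2 units it changed by 0.03 in Q2 against Q1 (edgeR adjusted p = 0.855), -0.76 ± 0.09 in Q3 against Q2 (1.36e-14) and -1.54 ± 0.10 in Q4 against Q3 (5.4e-37). mRpL10 overlaps CG11617 on the opposite strand.

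mRpL12 had 57.6, 359 and 417 CPM in eggs, 16.99, 308 and 415 in Q1, 166.3, 289 and 379 in Q2, 2.24, 82.9 and 312 in Q3, and 3.21, 77.8 and 151.8 in Q4. Most of its loss came with Q3. On the log2 scale mRpL10 fell more at the step to Q4, while its median in CPM fell more at the step to Q3. The log2 fold change of mRpL12 was -0.12 in Q2 against Q1 (edgeR adjusted p = 0.341), -1.32 ± 0.10 in Q3 against Q2 (2.36e-31) and -0.42 in Q4 against Q3 (3.99e-05). Between Q4 and Q1 it was -1.86 ± 0.10 for mRpL12 (edgeR adjusted p = 1.78e-49) and -2.27 ± 0.10 for mRpL10 (3.96e-62). In 7 embryos mRpL12 lay under 35 CPM, 1 in Q1, 3 in Q3 and 3 in Q4. They had 163287 to 447336 UMIs and 5 of them were in library 4. Whether their depth plays a part was not tested.

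mRpS23 (2L, 13834250 to 13835072, minus strand), a small-subunit protein specific to mitochondria, had the largest fall of the 72 between Q4 and Q1. It ran over 7.19, 23.1 and 25.0 CPM in eggs, 8.46, 19.2 and 30.7 in Q1, 5.56, 15.6 and 28.2 in Q2, 0, 8.23 and 34.8 in Q3, and 0, 1.64 and 7.51 in Q4. All Q4 embryos were below all Q1 embryos. The log2 fold change was -2.88 ± 0.15 in Q4 against Q1 (edgeR adjusted p = 1.23e-49) and -1.89 ± 0.17 in Q4 against Q3 (1.19e-23). Its gene overlaps Polr2C on the opposite strand. Only mRpS23 and mRpL10 fell at least 2-fold at that last step in this fit, where 17.9% of all genes did.

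In Q3 against Q2, 32 genes fell (22 mRpL and 10 mRpS; all genes 48.9%) and 25 rose (13 mRpL and 12 mRpS; all genes 40.5%). At least 2-fold falls were seen in 13, against 29.3% of all genes, and rises of that size in 0, against 9.59%. Without library 1, 38 rose and 25 fell (all genes 46.3% and 39%), 8 of these at least 2-fold, and the median of all genes moved to 0.12, beside -0.15 with all 4 libraries. Rises also outnumbered falls without library 2 (35 and 25, all genes 44.4% and 43.8%) and without library 4 (36 and 26, all genes 45.6% and 44.9%). The same held at 500000 UMIs or more (37 and 27, all genes 46.1% and 44%) and with no filter beyond 1 UMI (35 and 26, all genes 33.3% and 25.3%). Without library 3, 22 rose and 31 fell (all genes 39.7% and 48.6%). With all 4 libraries and the filter, the median log2 fold change was -0.13 for mRpL and 0.14 for mRpS genes. Besides the early genes and the stalk genes, mRpS35 (-1.68 ± 0.12, edgeR adjusted p = 5.5e-33), mRpS26 (-1.44 ± 0.13, 5.04e-24) and mRpL21 (-1.43 ± 0.10, 7.25e-35) had large falls here. mRpS35 (3L, 2780899 to 2782105, plus strand) had 10.8, 23.6 and 32.4 CPM in eggs, 11.4, 21.3 and 33.2 in Q1, 4.55, 16.9 and 28.8 in Q2, 0, 4.44 and 15.1 in Q3, and 2.59, 10.8 and 30.0 in Q4. It was the 11th gene at least 2-fold higher in Q4 than in Q3 (1.35 ± 0.13, edgeR adjusted p = 1.71e-21). In the rebuilt order that value was 0.05 and was not called.

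The highest values at this step were those of mRpL33 (0.72 ± 0.10, edgeR adjusted p = 3.16e-12), mRpS5 (0.64, 6.02e-12), mRpS11 (0.62, 9.05e-15), mRpL51 (0.55, 6.3e-08) and mRpS6 (0.54 ± 0.06, 3.57e-18), all but mRpL51 with bacterial relatives. With spike-in scaling no member was higher and 48 were lower at this step (all genes 9.12% and 56.5%), and mRpS5 (-0.04), mRpS11 (-0.09), mRpL51 (-0.04) and mRpS6 (-0.15) had negative values. That scaling moved the median of all genes to -0.64 and that of the 72 to -0.64.

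In Q4 against Q3, 31 of the 72 rose (19 mRpL and 12 mRpS; all genes 43.2%) and 22 fell (13 mRpL and 9 mRpS; all genes 41.8%). At least 2-fold rises were seen in 11, against 18.6% of all genes. After mRpS23 and mRpL10, the lowest values were those of mRpL24 (-0.90, edgeR adjusted p = 1.59e-18), mRpL28 (-0.79, 5.61e-32) and mRpL1 (-0.74, 3.67e-21). In bacteria the relative of mRpL1 forms the stalk by which the deacylated tRNA leaves. The median log2 fold change was 0.05 for the 72 genes and 0.02 for all, and with spike-in scaling -0.32 and -0.42. The split of calls depended on the scaling, with 11 higher and 30 lower for the spike-ins (all genes 21% and 49.6%) and 38 higher and 17 lower for DESeq2's size factors (RLE; all genes 48.7% and 36.7%).

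mRpS6 (FBgn0035534, 3L, 4364550 to 4365243, plus strand), of the family of bacterial S6, had higher levels late in the order. It had 64.7, 72.2 and 87.5 CPM in eggs, 8.50, 74.7 and 94.3 in Q1, 53.1, 73.02 and 104.8 in Q2, 20.1, 103.6 and 144.1 in Q3, and 60.6, 124.4 and 169.1 in Q4. The medians of Q3 and Q4 lay above the highest egg. The log2 fold change was 0.87 ± 0.06 in Q4 against Q1 (edgeR adjusted p = 3.25e-38), and -0.08 (0.686) with spike-in scaling. mRpL51 (2L, 8516753 to 8517380, minus strand; overlapping PIG-U), specific to mitochondria, had medians of 8.10 CPM in eggs and 11.2, 11.9, 15.8 and 20.5 CPM in Q1 to Q4, and 0.89 ± 0.10 (edgeR adjusted p = 9.54e-18; 0.04 with spike-in scaling). mRpS33, mRpS9 and mRpL11 followed with 0.75, 0.67 and 0.52 (edgeR adjusted p of 4.07e-15, 6.98e-17 and 6.31e-10), values that were -0.15, -0.33 and -0.44 with spike-in scaling. mRpS7 (2L, 10386662 to 10387652, plus strand) had medians of 215 CPM in eggs and 188.98, 193.2, 233 and 175.6 CPM in Q1 to Q4. It changed by 0.38 in Q3 against Q2 (edgeR adjusted p = 3.9e-13) and by -0.28 in Q4 against Q3 (8.35e-08).

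As a rank trend over the 245 embryos, given with no p because these transcriptomes also made the order, 45 of the 72 genes had a Spearman's rho of -0.5 or less in the authors' normalized values (all genes 52.5%) and 0 had 0.5 or more (all genes 13.9%). The lowest were mRpS23 (-0.862), mRpL10 (-0.841), mRpL17 (-0.808), mRpS29 (-0.796) and mRpL12 (-0.789). mRpS29 is the fly relative of DAP3, a GTP-binding protein of the small subunit. The highest were mRpS6 (0.386), mRpL51 (0.299), mRpS33 (0.142), mRpS9 (0.133) and mRpL33 (0.0312). In CPM, 21 fell (all genes 41.6%) and 3 rose (all genes 22.2%), which were mRpS6 (0.730), mRpL51 (0.544) and mRpS9 (0.532). The number of rising and falling genes thus depended on the normalization.

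Other parts of the mitochondrial translation system were read from lists, with counts for Q4 against Q1. Of all genes tested, 36.2% rose and 55.7% fell between these groups. Of 5 genes listed with the mitoribosome that do not carry an mRp name, OXA1L among them, 4 fell and 1 rose. CG4679 and CG6094 fell less than 2-fold in Q2 against Q1 (-0.63 and -0.81, edgeR adjusted p of 8.88e-08 and 7.36e-10). They had log2 fold changes of -2.06 and -2.12 in Q3 against Q2 and 1.95 and 2.23 in Q4 against Q3 (edgeR adjusted p of 2.63e-36, 4.1e-28, 1.69e-31 and 1.37e-28). OXA1L, an insertase of the inner membrane and not a ribosomal protein, had -2.25 in Q4 against Q1. Of 10 translation factors, 7 fell, among them mEFTs (-1.75), mEFG1 (-1.38) and mEFTu1 (-1.36), and 1 rose (mEFTu2, 0.77), with a median of -0.75. Of 13 mitochondrial aminoacyl-tRNA synthetases, which load tRNAs, 10 fell and 1 rose (AspRS-m, 0.65), with a median of -1.61 and the lowest values in ValRS-m (-4.64) and SerRS-m (-4.47). Of 10 genes for expression and copying of mitochondrial DNA, 7 fell, among them mtRNApol (-3.13), tam (-2.39) and mtSSB (-2.35), and 3 rose, among them mTTF (0.83), with a median of -1.22. With spike-in scaling 0 genes of these 4 lists rose, and 5, 9, 13 and 8 fell, in the order given, where 13.2% of all genes rose and 73.9% fell.

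The RNAs of the mitochondrial genome itself rose, 13 of 13 tested, with a median of 0.83 in Q4 against Q1, where 36.2% of all genes rose and 55.7% fell. Of 83 cytosolic ribosomal protein genes, 82 rose and 0 fell with edgeR (median 0.75), while the mitochondrial ones had a median of -0.39. With spike-in scaling the cytosolic list had 36 lower and 0 higher (median -0.33), the mitochondrial genome 5 lower and 0 higher (-0.30), and the 72 genes 68 lower and 0 higher (-1.35), so the medians of the first 2 lists changed sign and that of the 72 genes did not. Of 61 nuclear respiratory chain genes, 36 rose and 20 fell (median 0.25), and with spike-in scaling 0 rose and 46 fell (-0.73). Of all genes tested, 13.2% rose and 73.9% fell under that scaling. The difference between these lists was not tested. A gene's count in an individual cannot exceed the number of different UMI sequences, and the largest count of any gene came close to it. The largest count of a mitochondrial ribosomal protein gene was far below this limit. Which genes of the other lists came near it was not tested. Whether the limit affected their fold changes, with depth falling along the order, was not tested either.

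Allele-resolved values existed for 19 genes, 14 autosomal and 5 X-linked. They are the authors' normalized values without a fixed unit, read at known variants. The maternal value of an embryo holds RNA left from the egg as well as RNA made from its maternal allele, and these cannot be told apart. The paternal share of the 19 genes together was 0.119% ± 0.137 in eggs (SD, n = 8), which have no paternal genome, 0.2999% ± 0.318 in Q1, 0.271% ± 0.330 in Q2, 4.602% ± 5.29 in Q3 and 23.4% ± 12.2 in Q4 (n = 61). All 2453 genes of the table together reached 25.5% ± 9.04 in Q4. The share in Q4 was 28.6% ± 9.89 in the 40 embryos of at least 500000 UMIs and 13.3% ± 9.55 in the 21 shallower ones. Library means in Q4 ran from 18.3% to 26.2%. The part of depth in these shares was not tested.

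In Q4 the paternal value was higher for 1 of the 19 genes and the maternal value for 16, beside 9.02% and 70% of the 2062 genes tested (two-sided sign-flip permutation test with 100000 resamples, adjusted p under 0.05). The median share was 26.7% over the 19 genes and 33.1% over all genes tested. mRpL45, a protein by the tunnel exit in the mammalian mitoribosome, was the 1 with more paternal signal. Its paternal value was 2.28 ± 1.76 and its maternal value 0.885 ± 1.33 in Q4 (SD, n = 61), with the paternal higher in 43 of 61 embryos and a share of 72.02% (adjusted permutation p = 0.000102). Its paternal means were 0.250 in eggs and 0.115, 0.0820, 0.532 and 2.28 in Q1 to Q4, and its maternal means 4.62 in eggs and 4.25, 3.61, 0.758 and 0.885 in Q1 to Q4. The share read from its variants in eggs, the background for this gene, was 5.13% of the summed values, with a paternal sum of 2 over 8 eggs. As a mean over single eggs it was 16.7% ± 35.6 (SD), so this background is uncertain. The paternal mean had its highest value in Q4, and the maternal mean its lowest in Q3.

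**Figure D4:**
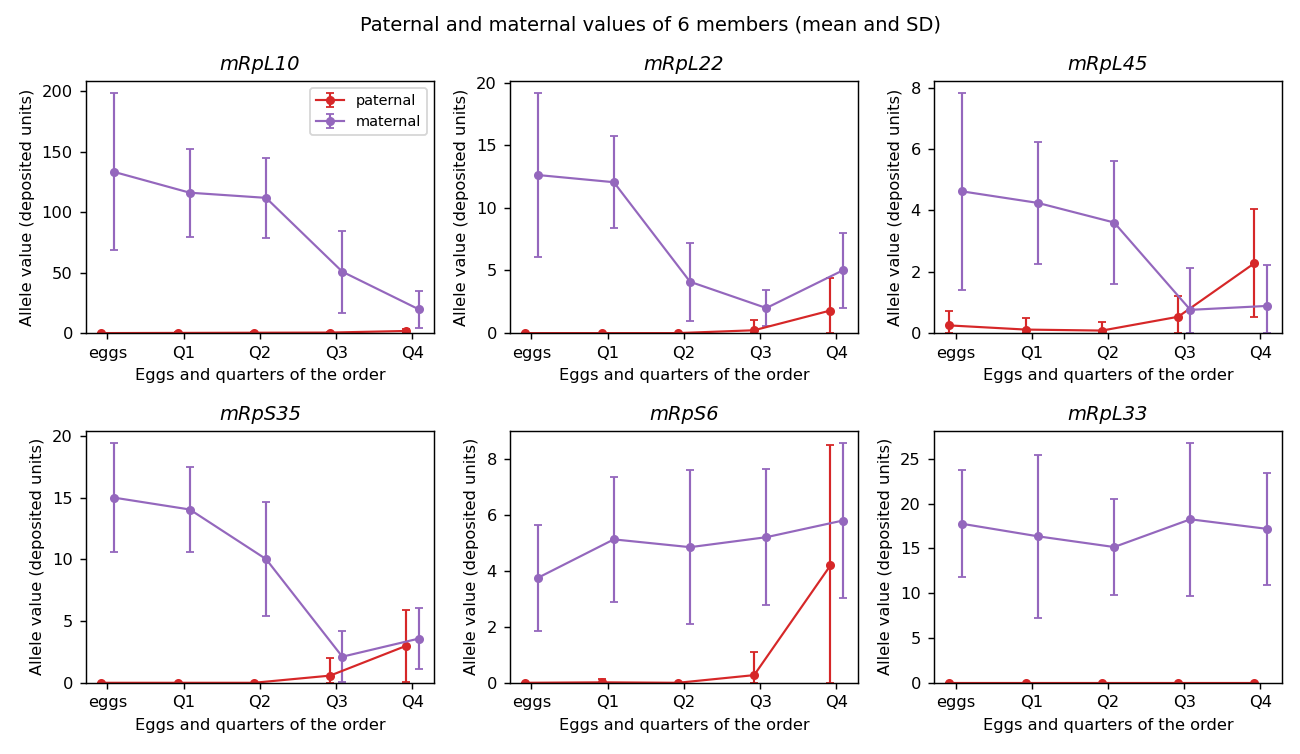
Mean paternal and maternal value (the authors' normalized values, no fixed unit; bars are SD, lower bars stop at 0) in the 8 eggs and Q1 to Q4 for 6 genes. In mRpL45 the paternal mean ends above the maternal one, in mRpS35 and mRpS6 both are present at the end, in mRpL10 and mRpL22 the maternal value stays higher, and mRpL33 has no paternal value.

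mRpL18 and mRpS35 were not called either way. mRpL18, of a family shared with bacteria, had a paternal mean of 1.66 and a maternal mean of 1.67 in Q4, a share of 49.8% (adjusted permutation p = 1). mRpS35 had 3.00 and 3.57, a share of 45.6% (adjusted permutation p = 0.277). In Q3 the paternal means were 0.565 for mRpL18 and 0.581 for mRpS35, and the maternal means 1.87 and 2.11. The maternal values had been 10.5 and 15.0 in eggs. Both genes belong to the later set.

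For mRpS6 the paternal mean was 4.197 and the maternal mean 5.803 in Q4, a share of 41.97% (adjusted permutation p = 0.0191). Its maternal means were 3.75 in eggs and 5.13, 4.85, 5.21 and 5.803 in Q1 to Q4, so its maternal signal was not lower in Q4 than in eggs. mRpL10 was the opposite case, with a paternal mean of 1.77 and a maternal mean of 19.8 in Q4, a share of 8.22%. Its maternal means were 133.5 in eggs and 116.2, 111.9, 50.8 and 19.8 in Q1 to Q4. The remaining autosomal genes had shares of 16.8% (mRpL23), 18.2% (mRpS11), 20.5% (mRpL34 and mRpL54), 26.7% (mRpS29), 28.2% (mRpL36), 29.3% (mRpL35), 33.97% (mRpL39) and 34.6% (mRpS18A).

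**Figure D5:**
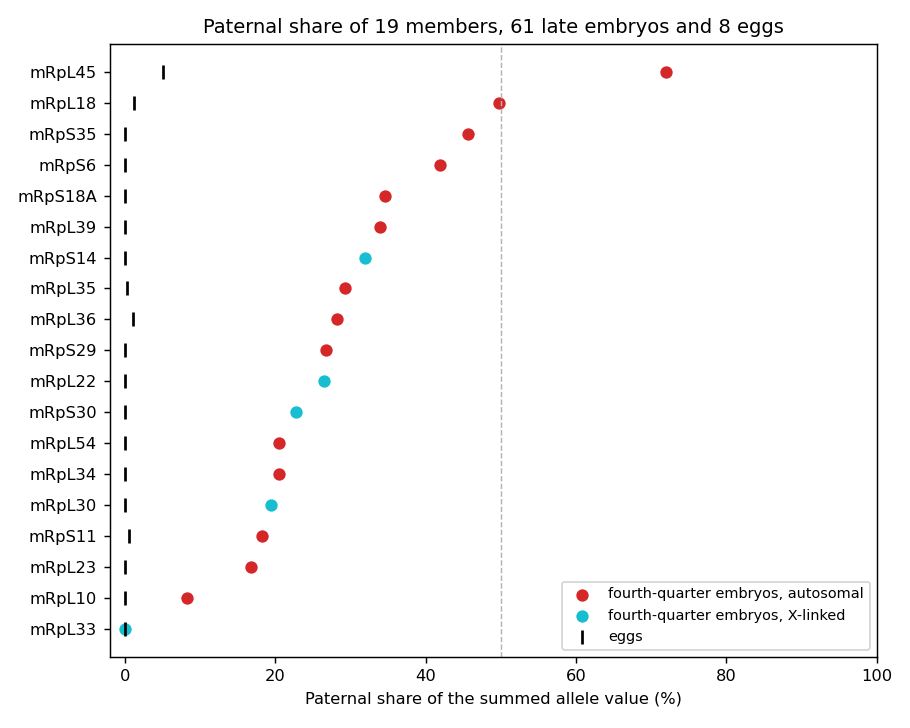
Paternal share in percent of 19 genes in the 61 Q4 embryos together and in the 8 eggs together (red autosomal, cyan X-linked), with a dashed line at 50%. The embryos run from 0% in mRpL33 to 72.02% in mRpL45, and only mRpL45 lies above the line.

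A father passes his X chromosome to daughters only, so X-linked genes have a paternal copy in only part of the embryos. mRpL22 (X, 16783933 to 16785092, plus strand), whose bacterial relative lines the peptide tunnel, is the gene of the early set with allele values. Its paternal means were 0 in eggs and in Q1 and Q2, 0.226 in Q3 and 1.80 in Q4. Its maternal means were 12.6 in eggs and 12.0, 4.10, 2.00 and 5.00 in Q1 to Q4. Both values were therefore higher in Q4 than in Q3, and the return of mRpL22 in CPM, 1.70 ± 0.16 on the log2 scale (edgeR adjusted p = 3.41e-22), had signal from both alleles. Its share was 26.5%, and the other X-linked genes had 19.4% (mRpL30), 22.7% (mRpS30), 31.9% (mRpS14, which had values in 23 of 61 embryos) and 0% (mRpL33). Before Q4, mRpS14 had allele values in only 2 of 8 eggs, 5 of 61 Q1, 7 of 61 Q2 and 6 of 62 Q3 embryos. Yet its lowest library mean in Q1 was 49.6 CPM (library 3). Most early individuals thus lacked an allele value for this counted gene, and the reason was not tested. Its share rests on few embryos, although mRpS14 is among the 16 genes with a higher maternal value.

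At least 1 X-linked gene had a paternal value in 34 of the 61 Q4 embryos. mRpL30 had one in 32, mRpS30 in 32, both in 30 and at least 1 of them in 34. All 26 embryos with a paternal mRpL22 value also had one of mRpL30 or mRpS30, as did all 9 with a paternal mRpS14 value. The other 27 embryos all had paternal values of autosomal genes of the family. mRpL33 had no paternal value in any of the 61, while its maternal mean was 17.8 in eggs and 16.3, 15.1, 18.2 and 17.2 in Q1 to Q4. A share of 0% was seen in 32 of the genes tested (1.55%), and its reason was not tested.

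Against eggs, the paternal share was higher in Q4 for 17 of 18 genes tested, where 71.6% of the 1815 genes tested were, and lower for 0, where 1.05% were (two-sided permutation test over individuals, 100000 resamples, adjusted p under 0.05). The exception was mRpL33, and mRpS14 had too few eggs with a value. Adjusted permutation p ran from 3.82e-05 for mRpL35 and mRpL39 to 0.0493 for mRpL22. With library 1 left out 10 of the 18 were called higher, beside 58.6% of all genes, and with library 4 left out 11, beside 58.4%, so in these 2 fits the share of members was near the background.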

How the data were processed

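Polyadenylated RNA of single eggs and embryos was counted in 4 multiplexed CEL-Seq2 libraries, whose barcode table assigns 384 individuals. 105 embryos and 26 eggs lie outside the authors' order; of these, 19 eggs were used in 1 alternative only. Libraries served as technical batches and individuals as replicates, so p-values measure the spread between individuals of these libraries. The authors deposited whole UMI counts per gene, and the file names give STARsolo, with its version and strand setting not given in the sources used here. The deposited series tables hold whole-number normalized values, read as a score whose unit is not fixed, in which 0.1 stands for 0. Per the submitters' processing notes, Trim Galore 0.6.10, SAMtools 1.17, Picard, GATK 4.4.0.0 and R 4.2.1 were used with the builds dm6 and BDGP6. Coordinates are those of the BDGP6.54 annotation.

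CPM were computed here from the deposited counts over all genes without spike-ins. Counts were tested with edgeR 4.0.16 (quasi-likelihood, TMM scaling, filterByExpr, library as covariate, R 4.3.3) in 1 fit over eggs and Q1 to Q4, with Benjamini-Hochberg adjustment over 6634 genes and a threshold of 0.05. These transcriptomes also made the order, so p-values along it are not independent of it, and an order rebuilt as the first principal component of the other genes was an alternative. Others were DESeq2 1.42.0, other scalings and filters, and leaving out libraries. The test was tried on simulated data. A sign-flip test of alleles used genes with values in at least 10 embryos and a mean sum of at least 1, and share tests at least 4 eggs. At 100000 resamples the smallest p is 1e-05. Members and lists were chosen with earlier results of these data known. Named are the up to 5 highest and 5 lowest called members per comparison and trend, every member with allele values, up to 4 examples per list and members that show the described shapes, chosen after their values were seen. Individuals share no replicate numbers, and the same libraries held all groups.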

Additional observations from a re-analysis of the deposited data

Results flagged for a closer look

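Among the 8 eggs, 5 of the 72 genes had 1 egg that stood apart from the other 7 by Dixon's criterion at the 95% level, a gap to the nearest value above 0.526 of the range, which chance gives in about 1 in 20 groups. In 4 of them it was the lowest value, each time in egg U2O.08 of library 4, which had the fewest UMIs of the eggs (278007). That egg had 82.7 CPM of mRpL10, where the next egg had 177.2 CPM, and 57.6 CPM of mRpL12, where the next had 309.8. It had 10.8 CPM of mRpS16 from 3 UMIs, with the next egg at 77.1, and 35.97 CPM of mRpS29, with the next at 62.9. The other was mRpL11, whose highest value, 35.4 CPM in egg U1O.01 of library 1, stood above the next of 25.7. Without both eggs placed behind Q1, 0 of the 72 genes were higher and 0 lower in Q1 embryos than in eggs with edgeR.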

How the results depend on the processing

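The counts that moved by over 1.5 times did so mainly with the scaling and with the libraries left out. With spike-in scaling Q4 against Q1 had 0 genes higher, 68 lower and 52 lower at least 2-fold. The median log2 fold change of all genes was then -1.42, with 13.2% of them higher and 73.9% lower. Q2 against Q1 had 12 lower, Q3 against Q2 0 higher and 27 lower at least 2-fold, and Q4 against Q3 11 higher and 8 lower at least 2-fold. At these steps, in this order, the median of all genes was -0.04, -0.64 and -0.42. Without scaling beyond total UMIs, Q4 against Q1 had 8 higher and Q2 against Q1 had 1. With no filter beyond 1 UMI Q4 against Q1 had 29 higher, 28 lower, 4 higher at least 2-fold and 9 lower at least 2-fold, and Q2 against Q1 had 1 higher. With individuals of at least 500000 UMIs only, Q4 against Q1 had 27 higher and 2 of these at least 2-fold, and Q2 against Q1 1 higher. Against all eggs, 26 genes were higher and 16 lower in Q1, and with eggs and Q1 alone in the fit, an alternative chosen after seeing the data, 1 was lower. In the rebuilt order Q3 against Q2 had 7 lower at least 2-fold, and Q4 against Q3 19 higher and 3 at least 2-fold. For the trend, CPM gave 3 rising and 21 falling genes, and a rho of 0.3 gave 1 rising.

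Values that changed sign were, with spike-in scaling in Q4 against Q1, mRpL11 (-0.44), mRpS9 (-0.33), mRpS33 (-0.15) and mRpS6 (-0.076), and in Q3 against Q2 mRpS6 (-0.15), mRpS11 (-0.087), mRpL51 (-0.039) and mRpS5 (-0.035). In the rebuilt order it was mRpL38 in Q4 against Q3 (-0.20). The difference of paternal and maternal value turned for mRpL18 (0.65 at 500000 UMIs or more, 0.0652 without library 1, 0.111 without library 4, over a leave-one-out range of -0.233 to 0.111) and mRpS35 (0.25 at 500000 UMIs or more). The cause was not tested.

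Leaving out 1 library at a time gave 11 to 31 genes higher and 28 to 45 lower in Q4 against Q1 (28 and 28 without library 1, 29 and 28 without library 2, 31 and 29 without library 4), with 0 to 4 higher and 8 to 14 lower at least 2-fold. Q2 against Q1 had 0 to 1 higher, 27 to 35 lower (27 without library 2), 0 higher at least 2-fold and 10 lower at least 2-fold each time. Q3 against Q2 had 22 to 38 higher (38 without library 1), 25 to 31 lower and 8 to 13 lower at least 2-fold. Q4 against Q3 had 28 to 36 higher, 16 to 21 lower, and 11 and 2 at least 2-fold each time. Q1 against eggs gave 0 in both directions each time. The trend had 0 rising and 42 to 48 falling, the alleles 1 gene with more paternal and 15 to 16 with more maternal signal, and the share against eggs 10 to 16 genes higher. Of the values of single genes under these alternatives, 604 kept direction and side of the threshold and 25 lost their call. No paired analysis was possible because the individuals of the groups share no replicate numbers. Low depth in Q4 limits what can be read from genes under 18.4 CPM in its shallowest embryos.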
